A study of Mus musculus with 27 samples.

Results

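The 3 livers of mice given 1 µg/kg 2,3,7,8-tetrachlorodibenzo-p-dioxin (TCDD) were compared with the 3 livers of mice given vehicle, 6 of the 27 liver RNA-seq libraries in a series of 9 groups of 3. The libraries of each group were taken from their dose and treatment labels. In the 1 µg/kg group, ovariectomized female C57BL/6 mice received TCDD in sesame oil by gavage every 4 days for 92 days. In the vehicle group, mice of the same sex, strain and surgery received the sesame oil only, on the same schedule. Loss of the ovaries and the oil were therefore shared by both groups, and 120 days is the age label of all of them. One sentence of the dosing protocol also calls the gavage daily. The study asked, by its title, how gene expression and metabolism change with dose as TCDD brings on liver fibrosis. Where a result is set against neighbouring doses, the 3 livers at 3 µg/kg and the 3 livers at 0.3 µg/kg are used. The labels number the livers 1, 2 and 3 within a dose, and values are given in that order throughout. The labels do not say whether each library came from 1 mouse, so the p-values measure the spread between these libraries.

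TCDD, a dioxin that the body clears slowly, binds the aryl hydrocarbon receptor (AhR). This receptor is a cytosolic transcription factor of the basic helix-loop-helix PAS family. Bound by ligand, AhR enters the nucleus, pairs with ARNT and binds DNA at a short core motif, GCGTG, upstream of its targets, the best known of which are the Cyp1 cytochromes P450. In mouse liver, sustained activation is known for fat accumulation, loss of many hepatocyte functions, immune cell infiltration and fibrosis. Bulk RNA from a whole liver mixes hepatocytes with all other cells, so fewer cells of a type and less RNA per cell cannot be told apart.

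Gene counts summed to 15188587, 28573247 and 17537123 in the 1 µg/kg livers and to 26212424, 19906704 and 29460863 in the vehicle livers. Among the other libraries, liver 2 at 0.3 µg/kg held 434011 counts, and the remaining 20 held between 11050391 and 30873586. The labels name no batch. Reads that fell on more than 1 gene made up 3.49% of assigned, unassigned and ambiguous reads together in liver 1 at 1 µg/kg, the highest share of the 27 libraries. The hepatocyte marker list, 15 secreted and metabolic genes, summed to 122553, 174599 and 153779 CPM (reads per 1000000 counted reads, after TMM scaling) in the 1 µg/kg livers and to 159042, 201167 and 285120.0 CPM in the vehicle livers. Alb, the gene of serum albumin, was the leading marker in all 6. Vehicle liver 3 stood apart in skeletal muscle genes. The 9 muscle markers summed to 0.773, 0.893 and 1.58 CPM in the 1 µg/kg livers and to 0.672, 0.994 and 145 CPM in the vehicle livers. The single muscle call, Acta1 (skeletal actin), ended without vehicle liver 3.

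The 3 livers at 1 µg/kg were less alike than the 3 vehicle livers. The median gene had a standard deviation of 0.251 log2 CPM among the 1 µg/kg livers, against 0.191 log2 CPM among the vehicle livers. A standard deviation above 1 log2 CPM was found for 4.78% of genes at 1 µg/kg and for 1.61% of genes in vehicle. Pearson correlations between pairs of livers, across the 15121 genes tested, ran from 0.956 to 0.975 at 1 µg/kg and from 0.981 to 0.987 in vehicle. By the median gene's standard deviation a wide spread was not particular to this dose. It was 0.303 log2 CPM at 0.01 µg/kg, 0.525 at 0.3 µg/kg, where liver 2 is the shallow library, and 0.254 at 30 µg/kg. The share of genes with a standard deviation above 1 log2 CPM was 30.4% at 0.3 µg/kg and at most 2.59% at the other doses. The lowest correlation was 0.886 at 0.3 µg/kg and 0.968 or more at the other doses. By both of these measures only 0.3 µg/kg was wider than 1 µg/kg. Genes are not independent replicates, so these correlations are descriptions. On the first principal component of the 500 most variable genes, 66.0% of the variance, livers 1, 2 and 3 at 1 µg/kg lay at 13.97, -1.88 and 15.07, and the vehicle livers at -28.98, -32.33 and -30.01. On the second component, 10.1% of the variance, the 1 µg/kg livers lay at 4.68, 21.80 and 7.91 and the vehicle livers at -11.12, -7.82 and -10.65. Liver 2 was thus nearest to vehicle on the first component and farthest from it on the second.

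**Figure D1:**
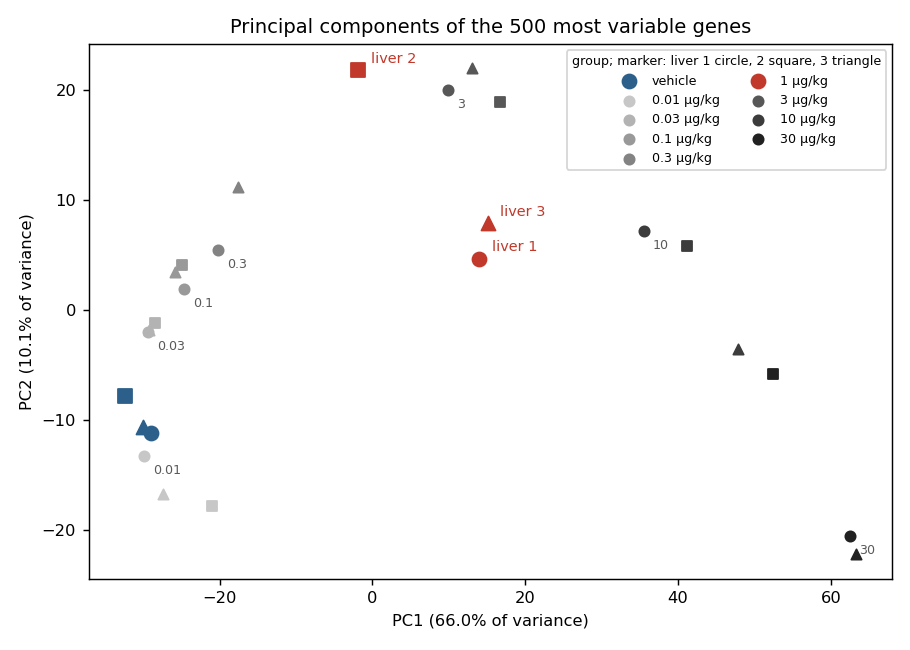
First (x axis, 66.0% of variance) and second (y axis, 10.1%) principal component scores of the 500 most variable genes, in log2 CPM, for 26 libraries; the library of 434011 counts was left out. Colours are dose groups and marker shapes are liver numbers; liver 2 at 1 µg/kg lies at -1.88 on the first axis and livers 1 and 3 at 13.97 and 15.07.

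Of the 15121 genes tested, 2927 differed between 1 µg/kg and vehicle at an adjusted p below 0.05 (19.4% of genes), by edgeR's quasi-likelihood test fitted to all 27 libraries with Benjamini-Hochberg adjustment. These were 1685 higher (11.1%) and 1242 lower (8.21%) at 1 µg/kg. These shares are the background for the counts of called genes in each list below. Over all genes tested, the log2 fold change had a median of -0.00061. The 3 livers at 1 µg/kg did not overlap the 3 vehicle livers for 5367 genes (35.5%), of which 2556 were higher (16.9%) and 2811 lower (18.6%). The dependence on single livers was large. Without liver 1 the test called 1731 genes, without liver 2 it called 2990, and without liver 3 it called 2197. Without vehicle liver 1, 2 or 3 it called 2215, 2073 and 1863, and with the spread estimated from the 6 libraries alone, it called 1591.

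Rises were carried unequally by the livers and falls almost equally. Among the 1685 genes called higher, the median liver difference from the vehicle mean was 1.74 log2 units in liver 1, 0.69 in liver 2 and 1.39 in liver 3. Among the 1242 genes called lower it was -0.76, -0.67 and -0.71. All 3 livers lay beyond the vehicle range for 1313 of the genes called higher (77.9%) and for 1206 of those called lower (97.1%). Liver 2 was the liver nearest to vehicle for 1163 of the genes called higher, liver 1 for 278 and liver 3 for 244. These shares describe genes that were called from the same values.

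Counting every gene tested that lay at least 1 log2 unit outside the vehicle range, liver 1 had 1381 above and 417 below, liver 2 had 339 above and 311 below, and liver 3 had 1108 above and 344 below. Livers 1 and 3 were both above by that margin, without liver 2, for 618 genes. All 3 livers were above for 172 genes and below for 124. Liver 1 alone was above for 557 genes, liver 3 alone for 261 and liver 2 alone for 76. The genes above in all 3 were thus a small part of those above in livers 1 and 3.

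**Figure D2:**
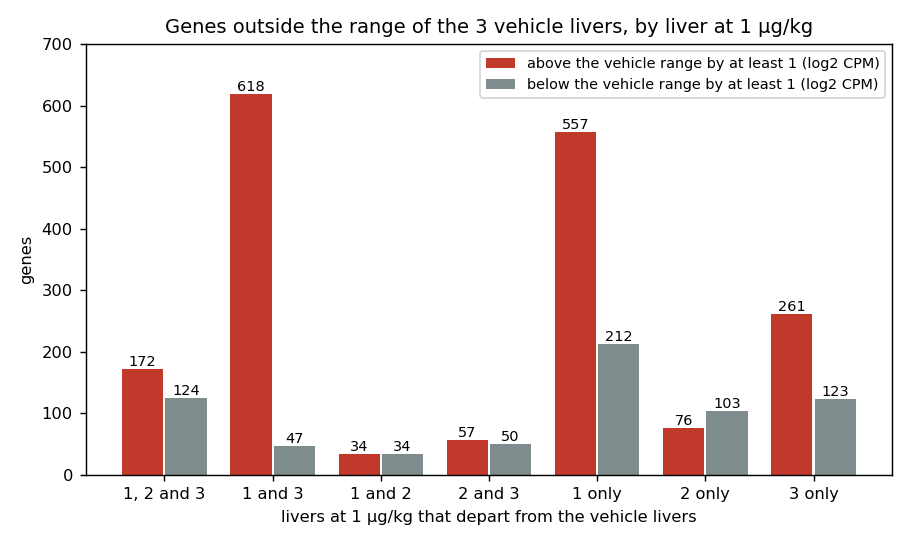
Number of genes (y axis) at least 1 log2 unit above or below the range of the 3 vehicle livers, by which of the livers at 1 µg/kg departed (x axis). The tallest bars are the genes above the range in livers 1 and 3 (618) and in liver 1 only (557), against 172 above it in all 3.

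The promoters of the AhR target genes that the results turn on are shown to locate the AhR core motif. RefSeq sequence of the 250 bases upstream of the transcription start, build GRCm38.p6, was searched for GCGTG on both strands, with matches in capitals; a match on the other strand reads CACGC. Cyp1a1 (chr9:57697363-57697612, + strand) held 1 match, Cyp1b1 (chr17:79715062-79715311, - strand) 1, Ahrr (chr13:74292332-74292581, - strand) 3 and Tiparp (chr3:65528197-65528446, + strand) 1.
Cyp1a1: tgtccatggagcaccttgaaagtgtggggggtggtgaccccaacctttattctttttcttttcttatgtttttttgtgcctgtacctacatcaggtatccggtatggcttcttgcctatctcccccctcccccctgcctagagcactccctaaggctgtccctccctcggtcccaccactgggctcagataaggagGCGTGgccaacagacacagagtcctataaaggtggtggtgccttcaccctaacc
Cyp1b1: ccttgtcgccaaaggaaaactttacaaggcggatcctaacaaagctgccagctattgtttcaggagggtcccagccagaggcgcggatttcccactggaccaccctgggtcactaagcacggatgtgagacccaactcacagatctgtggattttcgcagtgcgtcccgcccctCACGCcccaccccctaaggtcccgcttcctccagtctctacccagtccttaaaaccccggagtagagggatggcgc
Ahrr: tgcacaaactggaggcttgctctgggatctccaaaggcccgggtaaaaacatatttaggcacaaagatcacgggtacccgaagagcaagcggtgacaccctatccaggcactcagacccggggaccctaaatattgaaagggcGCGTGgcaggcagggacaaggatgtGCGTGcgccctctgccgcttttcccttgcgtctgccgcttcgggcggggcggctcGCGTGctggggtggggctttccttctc
Tiparp: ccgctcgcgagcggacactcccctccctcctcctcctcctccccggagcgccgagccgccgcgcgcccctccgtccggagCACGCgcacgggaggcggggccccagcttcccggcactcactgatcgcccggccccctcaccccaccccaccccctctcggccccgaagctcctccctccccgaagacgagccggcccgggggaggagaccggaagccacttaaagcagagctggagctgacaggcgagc
The first bases of the matches lay 54 bases before the start in Cyp1a1, 76 in Cyp1b1, 170 in Tiparp, and 107, 82 and 27 in Ahrr. Of 32851 RefSeq promoters of the same length, 9250 (28.2%) held at least 1 match and 911 (2.77%) held 3 or more. Cyp1a2, Nqo1, Ugt1a6a, Nfe2l2 and the immune and acute-phase genes Ltf, Ngp, Camp, Mpo, S100a8, S100a9, Orm2 and Saa1 held none in this window, and neither did the clock gene Arntl. Among genes that fell, Loxl4 held 1 match, 162 bases before the start, and the clock gene Npas2 held 1, 211 bases before it. The match is a description of these letters and not of a bound site.

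Most AhR battery genes rose, and here the 3 livers at 1 µg/kg were close to each other. Of its 10 genes, all tested, 8 rose and 0 fell, against a background of 11.1% of genes higher. The list's median log2 fold change was 2.39, and its median difference from the vehicle mean was 1.93, 1.84 and 1.58 in livers 1, 2 and 3. Cyp1a1, which hydroxylates polycyclic hydrocarbons, was at 3173, 4864 and 4017 CPM in the 1 µg/kg livers and 3.69, 3.19 and 2.49 CPM in the vehicle livers. Its mean was 4018 ± 846 CPM in the 1 µg/kg livers and 3.12 ± 0.605 CPM in the vehicle livers (SD, n = 3 each), a 1283-fold rise (log2 fold change 10.33 ± 0.33, adjusted p = 7.42e-18, where ± is the standard error), and the groups were far apart. Cyp1a2, a P450 that liver already makes without TCDD, was at 7959, 13651 and 14069 CPM in the 1 µg/kg livers and 777, 664 and 743 CPM in the vehicle livers (log2 fold change 4.03 ± 0.24, adjusted p = 1.15e-11). Its lowest level was in liver 1, still above every vehicle liver. Cyp1b1, the third member of the family, which vehicle livers barely transcribed, was at 162, 135 and 122 CPM in the 1 µg/kg livers and 0.821, 0.784 and 0.682 CPM in the vehicle livers (log2 fold change 7.51 ± 0.34, adjusted p = 3.44e-14).

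Both feedback genes of the pathway were higher in every liver. Ahrr, the AhR repressor, was at 23.6, 21.3 and 13.6 CPM in the 1 µg/kg livers and 0.224, 0.105 and 0.12 CPM in the vehicle livers (log2 fold change 6.92 ± 0.33, adjusted p = 5.14e-14). Tiparp, an ADP-ribosyltransferase that limits AhR signalling, was at 23, 16 and 13.2 CPM in the 1 µg/kg livers and 4.29, 5.8 and 5.86 CPM in the vehicle livers (log2 fold change 1.71 ± 0.28, adjusted p = 0.000162). Both were highest in liver 1 and lowest in liver 3. Among the conjugating and redox enzymes, Nqo1, a quinone reductase, was at 42.5, 53.6 and 45.2 CPM in the 1 µg/kg livers and 12, 13.1 and 12.6 CPM in the vehicle livers (log2 fold change 1.91 ± 0.19, adjusted p = 1.84e-07), and the regulator Nfe2l2 was at 104, 126 and 141 CPM in the 1 µg/kg livers and 77.9, 57.8 and 72.6 CPM in the vehicle livers (log2 fold change 0.84 ± 0.16, adjusted p = 0.000586). Ugt1a6a, a glucuronosyltransferase whose exons overlap other genes over 50.3% of their length, so that its count is uncertain, was at 51.7, 80.5 and 61.4 CPM in the 1 µg/kg livers and 31.6, 28.1 and 36.2 CPM in the vehicle livers (log2 fold change 1.02 ± 0.21, adjusted p = 0.00155). Its near-identical neighbour Ugt1a6b was not called, at 18.5, 26.2 and 14.9 CPM in the 1 µg/kg livers and 22.2, 24.5 and 26.4 CPM in the vehicle livers (adjusted p = 0.361). Aldh3a1, an aldehyde dehydrogenase, had a pooled 9 counts at 1 µg/kg and 1 in vehicle, a ratio of 10.1-fold (95% interval 1.4 to 442), and was not called (adjusted p = 0.0632).

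The receptor and its partner were not called. Ahr was at 42.9, 48.9 and 48 CPM in the 1 µg/kg livers and 43.5, 60.1 and 41.1 CPM in the vehicle livers (adjusted p = 0.897), and Arnt was at 45.4, 44.6 and 37.9 CPM in the 1 µg/kg livers and 42.5, 45 and 51.7 CPM in the vehicle livers (adjusted p = 0.567). Of the 6 tested genes for AhR, its partner and its chaperones, 0 rose and 0 fell, with a median log2 fold change of -0.07. In number, 8 battery genes were called when any 1 of the 3 livers at 1 µg/kg was left out, and 6, 8 and 8 were called with liver 1, 2 or 3 as the only treated library.

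**Figure D3:**
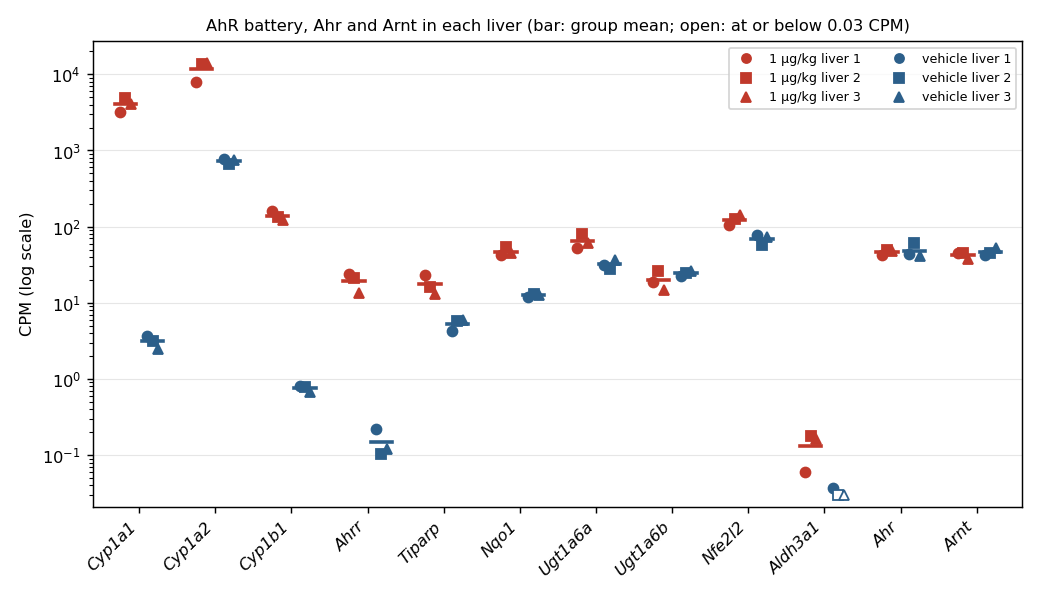
CPM (log axis) of the AhR battery genes, Ahr and Arnt in each liver; filled marks are livers, shapes are liver numbers, bars are group means, and open marks lie at or below 0.03 CPM. Cyp1a1, Cyp1b1 and Ahrr show no overlap between 1 µg/kg and vehicle and little spread among the livers at 1 µg/kg, whereas Ahr and Arnt overlap.

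Clock genes were another group with like list medians in the 3 treated livers, although single genes such as Ciart and Arntl differed between them. The molecular clock is a loop in which ARNTL (BMAL1) with CLOCK or NPAS2 activates Per, Cry, REV-ERB (Nr1d) and PAR bZIP genes, whose products feed back. Of 18 clock genes tested, 12 rose and 5 fell, against 11.1% of all genes higher and 8.21% lower, with per-liver medians of 1.47, 1.43 and 1.67 log2 units and a list median of 1.53. Arntl was at 1.96, 0.929 and 0.653 CPM in the 1 µg/kg livers and 33.9, 28.6 and 34.2 CPM in the vehicle livers (log2 fold change -4.80 ± 0.57, adjusted p = 7.27e-06). Npas2 was at 0.178, 0.286 and 0.163 CPM in the 1 µg/kg livers and 22.2, 11.6 and 20.9 CPM in the vehicle livers (log2 fold change -6.34 ± 0.66, adjusted p = 6.41e-07). Both activators were thus below every vehicle liver by a wide margin. In the other direction, Dbp, a PAR bZIP factor that CLOCK partners activate, was at 111, 169 and 214 CPM in the 1 µg/kg livers and 0.97, 1.05 and 1.28 CPM in the vehicle livers (log2 fold change 7.22 ± 0.54, adjusted p = 1.14e-08). Another gene on the other strand overlaps 18% of its exons. Ciart, a repressor of the loop, was at 12.2, 26.9 and 39.6 CPM in the 1 µg/kg livers and 0.112, 0.471 and 0.201 CPM in the vehicle livers (log2 fold change 6.72 ± 0.82, adjusted p = 1.18e-05), lowest in liver 1. Bhlhe41, which shares targets with the clock repressors, was at 12.8, 15.5 and 15.6 CPM in the 1 µg/kg livers and 0.298, 0.157 and 0.201 CPM in the vehicle livers (log2 fold change 5.99 ± 0.42, adjusted p = 2.01e-10), and its paralog Bhlhe40 was at 119, 117 and 104 CPM in the 1 µg/kg livers and 37.8, 35.7 and 40.5 CPM in the vehicle livers (log2 fold change 1.58 ± 0.31, adjusted p = 0.00116).

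Further clock genes followed, of which Per3 and Nfil3 were named after their values were seen. The gene Per3, a period gene, was at 53.3, 80.4 and 76 CPM in the 1 µg/kg livers and 1.68, 1.67 and 1.24 CPM in the vehicle livers (log2 fold change 5.51 ± 0.47, adjusted p = 7.81e-08). Nfil3, which opposes the PAR bZIP factors, was at 7.79, 6.07 and 6.53 CPM in the 1 µg/kg livers and 45.6, 25.6 and 50 CPM in the vehicle livers (log2 fold change -2.58 ± 0.28, adjusted p = 5.69e-07). The count was 12 higher and 5 lower without liver 1, 11 and 5 without liver 2, 11 and 4 without liver 3, and 12 and 5 in the fit of the 6 libraries. The hour at which each liver was taken is not given in the sources used here, and these transcripts cycle over the day.

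Single genes with the closest levels among the 3 livers at 1 µg/kg fell into several functions. Among genes called lower by at least 1 log2 unit, Lnx2, a ubiquitin ligase, was at 13.7, 13.6 and 13.8 CPM in the 1 µg/kg livers and 31, 32.8 and 33.8 CPM in the vehicle livers (log2 fold change -1.25 ± 0.18, adjusted p = 2.32e-05). Sdc1, the main heparan sulfate proteoglycan of the hepatocyte surface, was at 140.2, 145 and 146 CPM in the 1 µg/kg livers and 313, 300.1 and 277 CPM in the vehicle livers (log2 fold change -1.04 ± 0.19, adjusted p = 0.000479), and Bmp1, the procollagen C-proteinase, was at 55.5, 58.1 and 56.4 CPM in the 1 µg/kg livers and 147, 149 and 164 CPM in the vehicle livers (log2 fold change -1.43 ± 0.17, adjusted p = 2.15e-06). In each of these the 3 treated livers differed by less than the gap to vehicle, but the genes were chosen for close treated livers. The other closest falls were Fasn, Hdhd3, Rfxank, Mcu, Tmem218, Akap1 and Crot, with log2 fold changes down to -1.68, in Rfxank. Another gene overlaps 33.8% of Rfxank's exons. Mcu is the pore of the mitochondrial calcium uniporter, and Crot moves medium-chain acyl groups from peroxisomes to carnitine.

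Among genes called higher by at least 1 log2 unit, Nrg4, a secreted ligand of ErbB4, was at 9.04, 9.08 and 9.52 CPM in the 1 µg/kg livers and 3.39, 2.41 and 2.41 CPM in the vehicle livers (log2 fold change 1.74 ± 0.26, adjusted p = 4.55e-05), and Ripk2, the kinase downstream of NOD receptors, was at 10.6, 11.4 and 10.2 CPM in the 1 µg/kg livers and 4.63, 5.28 and 3.65 CPM in the vehicle livers (log2 fold change 1.25 ± 0.18, adjusted p = 2.22e-05). Zfp970, a zinc finger gene, was at 14.1, 13.5 and 12.7 CPM in the 1 µg/kg livers and 1.9, 3.35 and 1.57 CPM in the vehicle livers (log2 fold change 2.58 ± 0.48, adjusted p = 0.000643). All 3 treated livers exceeded all 3 vehicle livers for each of them, which is a description, as they were chosen for close treated livers. The other closest rises were Tbc1d8, Gdap10, Snai2, Fnip1, Smim22, Fbxw9 and Bhlhe40, with log2 fold changes between 1.01 and 2.19. The call for Smim22 ended when any 1 of the 6 livers was left out.

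Further large falls were single genes of unlike functions. Loxl4, a lysyl oxidase that crosslinks collagen and elastin (GRCm38 chr19:42593982-42612813), was at 0.952, 1 and 1.2 CPM in the 1 µg/kg livers and 18, 25.4 and 26.6 CPM in the vehicle livers (log2 fold change -4.47 ± 0.32, adjusted p = 3.22e-10) and was nearly level in the 3 treated livers. Mab21l2 fell to 2 pooled counts at 1 µg/kg, against 103 in vehicle, a ratio of 0.0218 (95% interval 0.0026 to 0.0807), with 36% of its exons overlapped by another gene. Slc34a2, a sodium phosphate cotransporter, was at 1.9, 0.464 and 0.762 CPM in the 1 µg/kg livers and 9.07, 25.9 and 15.7 CPM in the vehicle livers (log2 fold change -4.08 ± 0.64, adjusted p = 0.000152). Slco1a1, an organic anion importer of the hepatocyte, was at 4.46, 5.4 and 1.14 CPM in the 1 µg/kg livers and 55, 100.04 and 42.7 CPM in the vehicle livers (log2 fold change -4.14 ± 0.89, adjusted p = 0.00302). Every treated liver was below every vehicle liver for these genes. Hsd3b5, a male-biased steroid dehydrogenase, was at 0.0595, 0.143 and 0 CPM in the 1 µg/kg livers and 1.42, 4.86 and 0.161 CPM in the vehicle livers (log2 fold change -4.67 ± 1.05, adjusted p = 0.00299). Sult3a2, a female-biased sulfotransferase, was at 1.01, 1.75 and 0.0544 CPM in the 1 µg/kg livers and 5.6, 24 and 7.5 CPM in the vehicle livers (log2 fold change -3.62 ± 0.92, adjusted p = 0.0116). Elovl3, a fatty acid elongase, was at 1.37, 2.79 and 0.326 CPM in the 1 µg/kg livers and 14.5, 25 and 16.6 CPM in the vehicle livers (log2 fold change -3.57 ± 1.07, adjusted p = 0.0239). Vehicle liver 2 was the highest liver for each of these last genes, and without it the log2 fold change was -3.28 for Hsd3b5, which stayed called, -2.72 for Sult3a2 (adjusted p = 0.0566) and -3.31 for Elovl3 (adjusted p = 0.0636). Both of the calls that ended there also ended without liver 1 at 1 µg/kg, at -3.63 (adjusted p = 0.0524) and -3.49 (adjusted p = 0.0897), and that of Elovl3 without liver 3, at -3.12 (adjusted p = 0.0922).

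Ovol1, a zinc finger transcription factor of epithelial differentiation, rose in every treated liver. It had no count in any vehicle library and stood at 0.892, 1.75 and 2.39 CPM in the 1 µg/kg livers, at least 12.9-fold higher when each vehicle library is set to a floor of 3 counts (adjusted p = 1.61e-06). Such floors and intervals cover counting error only.

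**Figure D4:**
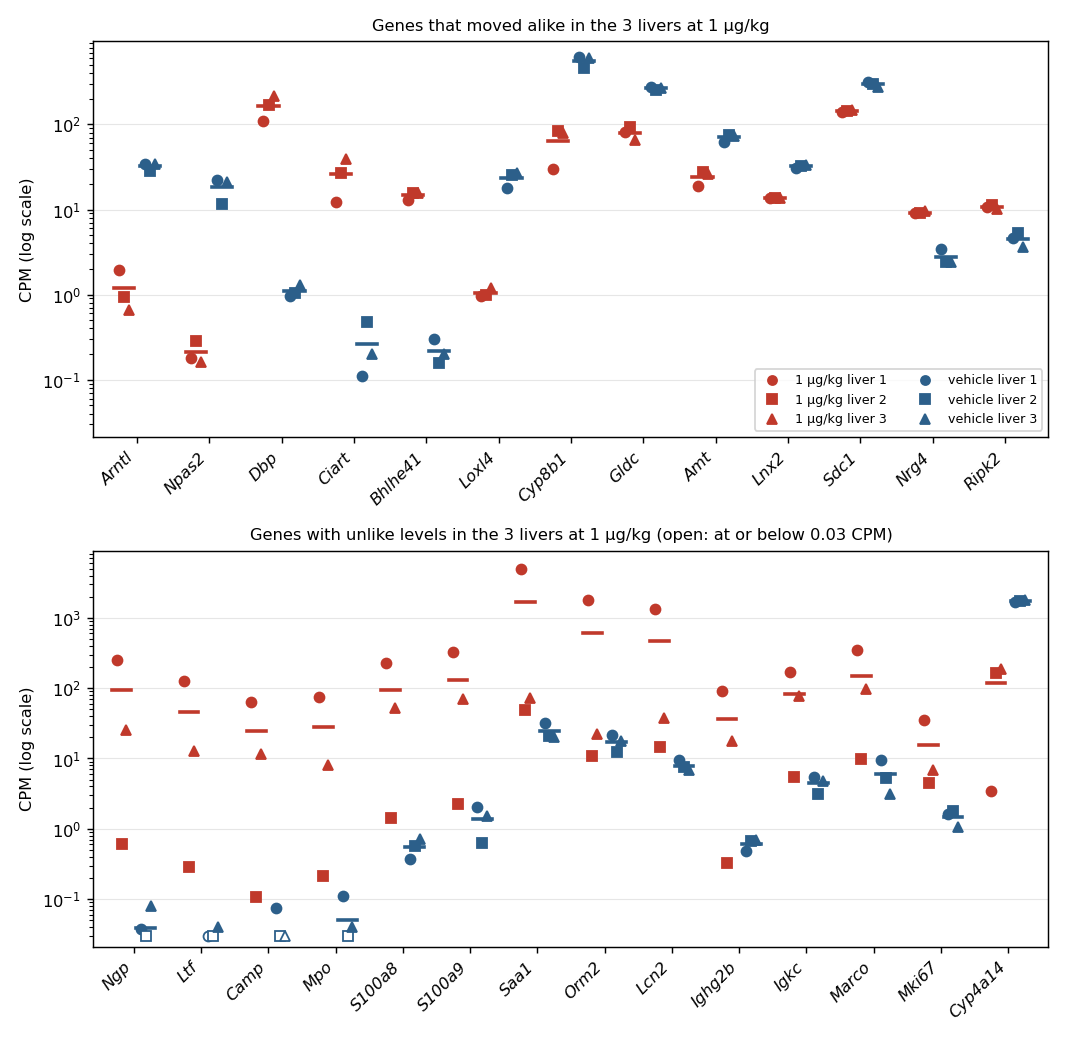
CPM (log axis) in each liver of genes with like levels (top) and unlike levels (bottom) among the livers at 1 µg/kg; shapes are liver numbers, bars are group means and open marks lie at or below 0.03 CPM. In the bottom panel liver 2 (squares) is the 1 µg/kg liver nearest to vehicle for Saa1, Lcn2, Igkc, Marco and Mki67, and liver 1 is the highest for the neutrophil genes Ngp, Ltf, Camp, Mpo, S100a8 and S100a9.

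Fatty acid oxidation genes fell in part, and liver 1 had the lowest levels. Of 22 genes tested, 0 rose and 11 fell, against 8.21% of all genes lower, with a list median of -0.65 and per-liver medians of -0.93, -0.45 and -0.57. Cyp4a14, a fatty acid omega-hydroxylase and a target of the fat sensor PPARα, was at 3.45, 163 and 189.8 CPM in the 1 µg/kg livers and 1704, 1739.7 and 1783 CPM in the vehicle livers (log2 fold change -3.87 ± 0.95, adjusted p = 0.0075), and it was lowest in liver 1 by far. Its paralog Cyp4a10, with which it could share reads, was at 24.6, 380.3 and 654 CPM in the 1 µg/kg livers and 740.1, 973 and 793 CPM in the vehicle livers and was not called (adjusted p = 0.233). Pdk4, which shuts off pyruvate oxidation, was at 3.93, 6.97 and 12.8 CPM in the 1 µg/kg livers and 75.4, 28.8 and 102 CPM in the vehicle livers (log2 fold change -3.12 ± 0.89, adjusted p = 0.0192). Ehhadh, an enzyme of peroxisomal oxidation, was at 191, 373 and 354 CPM in the 1 µg/kg livers and 689, 645 and 717 CPM in the vehicle livers (log2 fold change -1.16 ± 0.31, adjusted p = 0.00985). Acaa1b, a peroxisomal thiolase, was at 166, 349 and 471 CPM in the 1 µg/kg livers and 801, 793 and 838 CPM in the vehicle livers (log2 fold change -1.30 ± 0.36, adjusted p = 0.0123). Ppara itself was not called (adjusted p = 0.972). The falls numbered 4 without liver 1, 10 without liver 2, 9 without liver 3 and 7 in the fit of the 6 libraries. Without liver 1 the log2 fold change was -2.81 for Pdk4 (adjusted p = 0.0952), -0.91 for Ehhadh (adjusted p = 0.0757) and -0.98 for Acaa1b (adjusted p = 0.0837). The Pdk4 call also ended without liver 2 (-3.03, adjusted p = 0.058) and without vehicle liver 3 (-2.73, adjusted p = 0.0667), and that of Cyp4a14 ended in the fit of the 6 libraries (adjusted p = 0.107).

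Of the lipid handling genes, Cd36 and Lpl rose while Plin4 and Plin5 fell. Cd36, a fatty acid importer, was at 201, 346 and 269.6 CPM in the 1 µg/kg livers and 38.5, 60.8 and 78.5 CPM in the vehicle livers (log2 fold change 2.20 ± 0.26, adjusted p = 1.59e-06), with every treated liver above every vehicle liver. Lpl, lipoprotein lipase, was at 81.5, 33.3 and 145 CPM in the 1 µg/kg livers and 15.9, 16.9 and 20.6 CPM in the vehicle livers (log2 fold change 2.28 ± 0.45, adjusted p = 0.00133), highest in liver 3 and lowest in liver 2. Plin5, which ties lipid droplets to mitochondria, was at 14, 18.3 and 21.5 CPM in the 1 µg/kg livers and 67.2, 62.5 and 57.7 CPM in the vehicle livers (log2 fold change -1.80 ± 0.28, adjusted p = 0.000119). Plin4, another droplet coat gene, was at 1.07, 1.93 and 4.14 CPM in the 1 µg/kg livers and 8.92, 5.54 and 7.91 CPM in the vehicle livers (log2 fold change -1.65 ± 0.50, adjusted p = 0.0213). The Plin4 call ended without liver 1 (-1.32, adjusted p = 0.116), liver 2 (-1.51, adjusted p = 0.0765), vehicle liver 1 (-1.49, adjusted p = 0.0726) or vehicle liver 3 (-1.61, adjusted p = 0.0583). Without liver 3 the fold change of Lpl was 1.68 and it stayed called. Of the 16 genes tested in this list, 2 rose and 3 fell (median 0.10), against 11.1% of all genes higher and 8.21% lower. Fatty acid and triglyceride synthesis had 0 rises and 4 falls among 19 (median -0.43). In it Agpat2, an acyltransferase of triglyceride assembly, was at 111, 96.4 and 85.3 CPM in the 1 µg/kg livers and 238, 227 and 262 CPM in the vehicle livers (log2 fold change -1.31 ± 0.19, adjusted p = 2.11e-05). Fasn, fatty acid synthase, was at 221, 227 and 215 CPM in the 1 µg/kg livers and 323, 637 and 432 CPM in the vehicle livers (log2 fold change -1.07 ± 0.36, adjusted p = 0.0381). Scd1, the stearoyl-CoA desaturase, was not called (adjusted p = 0.344). The call of Fasn ended when any 1 treated liver, vehicle liver 2 or vehicle liver 3 was left out.

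Of 17 bile acid synthesis genes, 2 fell and 0 rose (median -0.36), a share near the 8.21% of all genes called lower. Cyp8b1, the sterol 12α-hydroxylase that sets the share of cholic acid, was at 30.1, 84.2 and 79.4 CPM in the 1 µg/kg livers and 615, 462 and 597 CPM in the vehicle livers (log2 fold change -3.11 ± 0.39, adjusted p = 1.02e-05), an 8.63-fold fall that was deepest in liver 1. Hsd3b7, which acts early in both routes from cholesterol, was at 322, 419 and 432 CPM in the 1 µg/kg livers and 960.4, 896 and 1000.0 CPM in the vehicle livers (log2 fold change -1.28 ± 0.18, adjusted p = 1.96e-05). Cholesterol synthesis had 0 rises and 2 falls among 19 (median -0.35), also near that share. One of them was Srebf2, its master regulator, at 62.5, 53.4 and 56.6 CPM in the 1 µg/kg livers and 94.3, 137 and 106 CPM in the vehicle livers (log2 fold change -0.97 ± 0.19, adjusted p = 0.000928). Among 14 transporters, 2 rose and 2 fell (median -0.25), against 11.1% of all genes higher and 8.21% lower. Abcc4, a basolateral exporter, was at 7.14, 9.11 and 16.6 CPM in the 1 µg/kg livers and 3.73, 3.14 and 2.37 CPM in the vehicle livers (log2 fold change 1.83 ± 0.45, adjusted p = 0.00639). Abcb11, the bile salt export pump, was at 454, 645 and 444 CPM in the 1 µg/kg livers and 734, 801 and 752 CPM in the vehicle livers (log2 fold change -0.57 ± 0.19, adjusted p = 0.0326). The Abcb11 call ended without liver 1, without liver 3 and without any 1 vehicle liver.

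Some one-carbon genes fell. Of 17 tested, 0 rose and 5 fell (median -0.54; per liver -0.92, -0.18 and -0.50), against 8.21% of all genes lower. Gldc, the decarboxylase of glycine cleavage, was at 80.4, 94.1 and 65.9 CPM in the 1 µg/kg livers and 274, 256 and 270.4 CPM in the vehicle livers (log2 fold change -1.73 ± 0.18, adjusted p = 4.05e-07). Amt, its aminomethyltransferase, was at 19, 27.7 and 26 CPM in the 1 µg/kg livers and 63, 74.9 and 73.7 CPM in the vehicle livers (log2 fold change -1.54 ± 0.16, adjusted p = 4.54e-07). Bhmt, which remethylates homocysteine from betaine, was at 86.2, 228 and 201 CPM in the 1 µg/kg livers and 378, 886 and 607 CPM in the vehicle livers (log2 fold change -1.86 ± 0.37, adjusted p = 0.00118). The falls numbered 5 without liver 1, 6 without liver 2 and 4 without liver 3. Csad, which makes the taurine precursor from cysteine, was at 21.6, 18.7 and 40 CPM in the 1 µg/kg livers and 329.6, 212 and 251 CPM in the vehicle livers (log2 fold change -3.31 ± 0.38, adjusted p = 2.66e-06).

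Carbohydrate genes moved in both directions. Pklr, the liver pyruvate kinase, was at 66.2, 98.1 and 78 CPM in the 1 µg/kg livers and 271, 241 and 239.5 CPM in the vehicle livers (log2 fold change -1.63 ± 0.30, adjusted p = 0.000498), with 22% of its exons overlapped by a gene on the other strand, and Pkm, the isoform of other cell types, at 27.7, 14 and 22.3 CPM in the 1 µg/kg livers and 10.9, 6.33 and 8.83 CPM in the vehicle livers (log2 fold change 1.28 ± 0.25, adjusted p = 0.000934). Of 17 glycolysis genes, 3 rose and 2 fell (median -0.04), and the rises of Hk2 and Hk3, hexokinases of non-hepatocyte cells, ended without liver 1 (adjusted p = 0.204 and 0.18). Of 15 genes of gluconeogenesis and glycogen, 1 rose and 4 fell (median -0.08). The counts of this list and of the glycolysis list stand against 11.1% of all genes higher and 8.21% lower. Ppp1r3c, a glycogen-targeting subunit of protein phosphatase 1, was at 37.9, 47.2 and 30.3 CPM in the 1 µg/kg livers and 136, 139 and 231 CPM in the vehicle livers (log2 fold change -2.13 ± 0.30, adjusted p = 2.32e-05). Gys2, liver glycogen synthase, was at 164, 238 and 247 CPM in the 1 µg/kg livers and 105, 113 and 118 CPM in the vehicle livers (log2 fold change 0.95 ± 0.27, adjusted p = 0.0147), a call that ended without liver 3 (0.85, adjusted p = 0.0621) or vehicle liver 1 (0.92, adjusted p = 0.0532). Among 21 genes of the urea cycle and amino acid breakdown, the 1 call was Tdo2, the tryptophan dioxygenase, at 1038, 1916 and 1108 CPM in the 1 µg/kg livers and 722, 769 and 892 CPM in the vehicle livers (log2 fold change 0.77 ± 0.20, adjusted p = 0.00735; list median -0.14). This call ended without liver 2 (0.44, adjusted p = 0.0977) and in the fit of the 6 libraries (adjusted p = 0.0842).

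Several NRF2 and glutathione genes rose, and the list's median was highest in liver 3. NRF2 is the transcription factor encoded by Nfe2l2. Of 18 tested, 8 rose and 0 fell, against 11.1% of all genes higher and 8.21% lower. The median was 1.07 and the per-liver medians were 0.53, 0.31 and 1.30. Gstm3, a glutathione S-transferase with close paralogs, was at 113, 129 and 365 CPM in the 1 µg/kg livers and 35.3, 35.8 and 36.6 CPM in the vehicle livers (log2 fold change 2.50 ± 0.51, adjusted p = 0.00161). Gsta1, of another such family, was at 1.37, 2.54 and 3.05 CPM in the 1 µg/kg livers and 0.224, 0 and 0.201 CPM in the vehicle livers (log2 fold change 3.88 ± 1.00, adjusted p = 0.00921), and the peroxidase gene Gpx2, with 1 vehicle count, had a pooled ratio of 77.4-fold (95% interval 13.4 to 3099.7) (adjusted p = 0.0016). Hmox1, heme oxygenase, was at 122, 27.5 and 119 CPM in the 1 µg/kg livers and 31, 15 and 19.2 CPM in the vehicle livers (log2 fold change 2.04 ± 0.43, adjusted p = 0.00203), so livers 1 and 3 were high and liver 2 lay within the vehicle range. Kupffer cells also make it, and its share from them was not tested. Gstm1 was not called (adjusted p = 0.37). In the heme and iron list, 3 of 18 rose and 2 fell (median 0.03), among them Slc40a1, the iron exporter ferroportin, at 306, 216 and 250.3 CPM in the 1 µg/kg livers and 143, 149 and 162 CPM in the vehicle livers (log2 fold change 0.77 ± 0.17, adjusted p = 0.00177).

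Calls among hepatocyte regulators were falls. Of 20 hepatocyte transcription factors, 0 rose and 5 fell (median -0.21), against 11.1% of all genes higher and 8.21% lower. Gata4 was at 12.4, 14.4 and 13.3 CPM in the 1 µg/kg livers and 25.5, 27 and 23.9 CPM in the vehicle livers (log2 fold change -0.93 ± 0.16, adjusted p = 0.000274). Hnf4a, the central hepatocyte factor, was not called, at 596, 616 and 491 CPM in the 1 µg/kg livers and 622, 634 and 694 CPM in the vehicle livers (adjusted p = 0.499). In the growth hormone axis, 2 of 13 rose and 3 fell (median -0.12). Stat5b, its transducer, was at 47.5, 47.8 and 37.9 CPM in the 1 µg/kg livers and 92.8, 70.9 and 96.6 CPM in the vehicle livers (log2 fold change -0.97 ± 0.15, adjusted p = 5.51e-05). Igf1 was not called (adjusted p = 0.792). Of 21 sex-biased genes, 3 rose and 5 fell, with per-liver medians of -1.19, 0.12 and -0.49 (list median -0.10). In the hepatocyte marker list, 0 rose and 3 fell of 15 (median -0.44). Apoa1, the main protein of high-density lipoprotein, was at 6301, 3187 and 5855 CPM in the 1 µg/kg livers and 8964, 11552 and 15851 CPM in the vehicle livers (log2 fold change -1.25 ± 0.34, adjusted p = 0.0118), and this call ended without liver 2 (adjusted p = 0.0582) and without vehicle liver 3 (adjusted p = 0.0711). Of 10 pericentral markers, 2 rose and 0 fell (median 0.11), namely Cyp1a2 and Slc1a2, a glutamate importer at 577, 704 and 601 CPM in the 1 µg/kg livers and 216, 244 and 159.6 CPM in the vehicle livers (log2 fold change 1.60 ± 0.19, adjusted p = 1.71e-06). Of 10 periportal markers, 0 rose and 0 fell (median -0.21).

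Acute phase proteins separated liver 1 from the other livers of both groups. These are plasma proteins that hepatocytes make in amounts set by inflammatory cytokines. Their 22 genes summed to 69519.8, 18868 and 17695 CPM in the 1 µg/kg livers and to 28010.1, 29520.1 and 37224 CPM in the vehicle livers, so liver 1 was above and livers 2 and 3 were below all vehicle livers. Saa1, serum amyloid A (GRCm38 chr7:46740497-46742980), was at 4934, 48.6 and 72.2 CPM in the 1 µg/kg livers and 31.9, 20.7 and 20.5 CPM in the vehicle livers (log2 fold change 6.11 ± 1.45, adjusted p = 0.00611), and its close paralog Saa2 at 4083, 28.4 and 52.9 CPM in the 1 µg/kg livers and 22.9, 9.41 and 12.8 CPM in the vehicle livers (log2 fold change 6.52 ± 1.55, adjusted p = 0.00614). Orm2, an α1-acid glycoprotein with near-identical copies, was at 1769, 10.7 and 22.5 CPM in the 1 µg/kg livers and 21.4, 12.4 and 17.9 CPM in the vehicle livers (log2 fold change 5.12 ± 1.33, adjusted p = 0.0109), with liver 2 below, liver 3 just above and liver 1 far above the vehicle livers. Hp, haptoglobin, named after its values were seen, was at 11349.7, 890.3 and 1508 CPM in the 1 µg/kg livers and 1967, 2305 and 3090.2 CPM in the vehicle livers and was not called (adjusted p = 0.335).

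By the test, 7 of the acute phase genes rose and 1 fell, with a median of 0.51 and per-liver medians of 1.46, -0.28 and -0.40. Without liver 1 the count was 0 rises and 4 falls, and the adjusted p was 0.346 for Saa1, 0.342 for Saa2 and 0.0604 for Lcn2. With liver 1 as the only treated library it was 11 rises and 0 falls, and with liver 2 it was 0 and 0. With liver 3 it was 1 and 3, and in the fit of the 6 libraries 0 rose and 0 fell. The rises among acute phase genes thus rested on liver 1. Outside the 6 livers the list summed to at most 38497 CPM, but a single liver was also high in some of its genes at 30 µg/kg. Saa1 was at 113, 190 and 1997 CPM and Orm2 at 23.4, 26.3 and 225 CPM in livers 1, 2 and 3 at that dose. Of 21 complement genes, 5 rose and 0 fell (median 0.04), against 11.1% of all genes higher and 8.21% lower. C3, the central component, was not called (adjusted p = 0.444). C1qb, a subunit made by macrophages, was at 172, 55.7 and 171 CPM in the 1 µg/kg livers and 66.6, 45.3 and 40.3 CPM in the vehicle livers (log2 fold change 1.39 ± 0.33, adjusted p = 0.00539). C1qa, another, was at 172, 59.6 and 195 CPM in the 1 µg/kg livers and 79.1, 48.8 and 48.3 CPM in the vehicle livers (log2 fold change 1.27 ± 0.32, adjusted p = 0.00643).

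Neutrophil granule genes were, with Cyp1a1, among the largest rises, and livers 1 and 3 carried them. Developing neutrophils in bone marrow transcribe granule proteins that mature neutrophils no longer make. Of the 12 tested of 13 such genes, 11 rose and 0 fell. Their median log2 fold change was 8.003, or 7.39 with Ms4a3, which had no vehicle count, at its bound, and their per-liver medians were 7.77, 0.75 and 4.64. The list summed to 2009.7, 25.7 and 123 CPM in the 1 µg/kg livers and to 16.7, 14.9 and 13.8 CPM in the vehicle livers. It includes Lcn2, which hepatocytes also make in the acute phase.

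Ngp, neutrophilic granule protein (GRCm38 chr9:110419747-110423012), was at 253, 0.607 and 25.5 CPM in the 1 µg/kg livers and 0.0373, 0 and 0.0803 CPM in the vehicle livers. With 3 vehicle counts in all, its pooled ratio was 1771-fold (95% interval 605 to 8588) (adjusted p = 0.000628). Ltf, lactoferrin, was at 127, 0.286 and 12.6 CPM in the 1 µg/kg livers and 0, 0 and 0.0401 CPM in the vehicle livers, with 1 vehicle count and a pooled ratio of 2659-fold (95% interval 477 to 105052) (adjusted p = 0.00127). Camp, the cathelicidin precursor, was at 62.6, 0.107 and 11.7 CPM in the 1 µg/kg livers and 0.0746, 0 and 0 CPM in the vehicle livers, with 2 vehicle counts and a pooled ratio of 713-fold (95% interval 197 to 5890.4) (adjusted p = 0.00256). In each of these, liver 1 was highest and liver 3 was well below it. Liver 2 was under 1 CPM, as were the vehicle livers, but it lay above every vehicle liver. The primary granule gene Mpo, myeloperoxidase, was at 74.7, 0.214 and 7.94 CPM in the 1 µg/kg livers and 0.112, 0 and 0.0401 CPM in the vehicle livers (log2 fold change 8.79 ± 1.69, adjusted p = 0.00129). A gene on the other strand overlaps 15% of its exons. Prtn3, proteinase 3, was at 37.1, 0.0357 and 3.65 CPM in the 1 µg/kg livers and 0.112, 0.0523 and 0 CPM in the vehicle livers (log2 fold change 7.76 ± 1.64, adjusted p = 0.0024). Elane, neutrophil elastase, had a pooled ratio of 299.9-fold (95% interval 82.6 to 2483) (adjusted p = 0.00211). Ms4a3, of the granulocyte precursor, was at 6.78, 0.0357 and 0.653 CPM at 1 µg/kg and absent from the vehicle counts, at least 19.2-fold higher (adjusted p = 0.0128, and 0.0525 without liver 1). Cebpe, a granulocyte transcription factor, was not called, at 9.99, 9.5 and 11.3 CPM in the 1 µg/kg livers and 6.72, 7.06 and 6.58 CPM in the vehicle livers (adjusted p = 0.142). In the fit of the 6 libraries Cebpe was called higher (log2 fold change 0.60, adjusted p = 0.0397).

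Mature neutrophil genes rose with them. Of 12 tested of 14, 12 rose and 0 fell, with a median of 3.78 and per-liver medians of 4.54, 0.55 and 2.62. They summed to 698, 13.9 and 171 CPM in the 1 µg/kg livers and to 11.6, 8.47 and 9.23 CPM in the vehicle livers. S100a8 was at 224, 1.43 and 52.1 CPM in the 1 µg/kg livers and 0.373, 0.575 and 0.722 CPM in the vehicle livers (log2 fold change 7.37 ± 1.27, adjusted p = 0.000565), and its partner in calprotectin, S100a9, at 321, 2.25 and 69.8 CPM in the 1 µg/kg livers and 2.01, 0.628 and 1.52 CPM in the vehicle livers (log2 fold change 6.51 ± 1.15, adjusted p = 0.000723). Cd177, a neutrophil surface protein, had 1 vehicle count and a pooled ratio of 362-fold (95% interval 64.5 to 14349) (adjusted p = 0.00403). With liver 1 left out the log2 fold changes were 5.58 for S100a8, 4.65 for S100a9, 6.02 for Mpo and 4.84 for Prtn3, all called. In the fit of the 6 libraries the calls of S100a8, S100a9 and Ngp ended (adjusted p = 0.0776, 0.087 and 0.0837). Mpo and Prtn3 were too low in count to be tested in that fit. Ly6g and Stfa2l1, defining markers too low to be tested, had no count in liver 2 or in any vehicle liver. The rises of the immature list numbered 7 without liver 1, 12 without liver 2, 10 without liver 3, 0 with liver 2 as the only treated library and 1 in the fit of the 6 libraries. Those of the mature list numbered 9, 13, 12, 0 and 0. The 1 rise of the immature list in the fit of the 6 libraries was Cebpe. Leaving a library out also changes which genes pass the filter on low counts, which a gene could pass through the livers where it was high, so these counts are descriptions. The part of such cells in the other rises of livers 1 and 3 was not tested.

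Antibody genes were also high in livers 1 and 3. Ighg2b, the constant region of an IgG class, was at 90.8, 0.322 and 17.5 CPM in the 1 µg/kg livers and 0.485, 0.68 and 0.682 CPM in the vehicle livers (log2 fold change 5.87 ± 1.17, adjusted p = 0.00157). Ighg2c, of a related class, was at 90.2, 0 and 8.87 CPM in the 1 µg/kg livers and 0.187, 0.209 and 0.161 CPM in the vehicle livers (log2 fold change 7.44 ± 1.61, adjusted p = 0.003), both with near-identical neighbours. Igkc, the kappa light chain, was at 167, 5.4 and 76.4 CPM in the 1 µg/kg livers and 5.45, 3.14 and 4.74 CPM in the vehicle livers (log2 fold change 4.21 ± 0.73, adjusted p = 0.000538). Jchain, which joins IgM and IgA units, was at 48.9, 2.79 and 32.4 CPM in the 1 µg/kg livers and 1.45, 1.1 and 2.29 CPM in the vehicle livers (log2 fold change 4.10 ± 0.70, adjusted p = 0.00041). In all of these, liver 2 was at or near vehicle and livers 1 and 3 were above it. Without liver 1 their log2 fold changes were 3.84, 4.53, 3.19 and 3.43, all called, and in the fit of the 6 libraries the calls of Ighg2b, Igkc and Jchain ended (adjusted p = 0.113, 0.0905 and 0.0691). Ighg2c was too low in count to be tested in that fit. Of 13 B and plasma cell genes, 4 rose and 1 fell (median 0.93), against 11.1% of all genes higher and 8.21% lower. Their summed levels were 729, 338 and 541 CPM at 1 µg/kg and 464, 537 and 460.3 CPM in vehicle. Much of these sums was Sdc1 and Xbp1, so they are no measure of B cells. Sdc1 was at 140, 145 and 146 CPM at 1 µg/kg and 313, 300 and 277 CPM in vehicle. Xbp1, not called, was at 247, 169 and 174 CPM at 1 µg/kg and 126, 222 and 165 CPM in vehicle. The fall was Sdc1, which hepatocytes also make, and the surface markers Cd79a and Ms4a1 were not called. Of 16 T and NK cell genes, 3 rose and 0 fell (median 0.78), with summed levels of 16.6, 13.2 and 27.3 CPM at 1 µg/kg and 14, 8.99 and 7.91 CPM in vehicle. One was Nkg7, a cytotoxic granule gene at 4.88, 1.46 and 3.26 CPM in the 1 µg/kg livers and 1.42, 0.68 and 0.441 CPM in the vehicle livers (log2 fold change 1.87 ± 0.54, adjusted p = 0.0163), a call that ended without liver 1 (1.44, adjusted p = 0.109), vehicle liver 2 (1.74, adjusted p = 0.0693) or vehicle liver 3 (1.55, adjusted p = 0.0938).

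Kupffer cell genes, those of the resident liver macrophage, were higher in livers 1 and 3. Of 13 tested, 12 rose and 0 fell, with a median of 1.29 and per-liver medians of 1.79, 0.28 and 1.69. They summed to 2506, 825 and 1777 CPM in the 1 µg/kg livers and to 814, 619 and 586 CPM in the vehicle livers. Marco, a scavenger receptor, was at 345, 9.93 and 97.7 CPM in the 1 µg/kg livers and 9.4, 5.23 and 3.17 CPM in the vehicle livers (log2 fold change 4.66 ± 0.99, adjusted p = 0.00266), a steeper rise than that of Cd5l, a secreted survival factor of macrophages, at 541, 126 and 306 CPM in the 1 µg/kg livers and 126, 87 and 70 CPM in the vehicle livers (log2 fold change 1.78 ± 0.38, adjusted p = 0.00216). Timd4, a receptor for dying cells, was at 68, 12.3 and 36 CPM in the 1 µg/kg livers and 11.1, 7.53 and 7.42 CPM in the vehicle livers (log2 fold change 2.15 ± 0.47, adjusted p = 0.003), and Adgre1 (F4/80) at 82.8, 16.4 and 46.1 CPM in the 1 µg/kg livers and 16.6, 11.7 and 11.9 CPM in the vehicle livers (log2 fold change 1.85 ± 0.47, adjusted p = 0.00909). The rises numbered 7 without liver 1, 13 without liver 2, 8 without liver 3, and 2 in the fit of the 6 libraries. Of 14 recruited macrophage and monocyte genes, 8 rose and 1 fell (median 1.85; per liver 2.29, 0.29 and 1.93). The fall was Fn1, fibronectin, which hepatocytes also make. This list summed to 2332, 2135.5 and 1911 CPM in the 1 µg/kg livers and to 2695, 2972 and 2979 CPM in the vehicle livers. By that sum every treated liver was below every vehicle liver, but abundant members weigh most in it. One of them, F10, was not called. It was at 514, 521 and 484 CPM in the 1 µg/kg livers and 588, 575 and 635 CPM in the vehicle livers. The sum therefore does not describe the 8 members that rose, and it is no measure of the number of such cells. Gpnmb, a gene of lipid-laden macrophages, was at 2.08, 1.39 and 13.8 CPM in the 1 µg/kg livers and 0.224, 0.0523 and 0.281 CPM in the vehicle livers (log2 fold change 4.80 ± 1.02, adjusted p = 0.00263), highest in liver 3. Chil3, a chitinase-like protein counted with the immature neutrophil list, was at 40, 0.179 and 6.69 CPM in the 1 µg/kg livers and 0.112, 0.209 and 0.0401 CPM in the vehicle livers (log2 fold change 7.01 ± 1.36, adjusted p = 0.00127). Ly6c2, of inflammatory monocytes, was at 12.7, 0.393 and 2.34 CPM in the 1 µg/kg livers and 0.634, 0.418 and 0.401 CPM in the vehicle livers (log2 fold change 3.35 ± 0.74, adjusted p = 0.00252). Leaving out liver 1 ended the calls of Adgre1 (1.22, adjusted p = 0.0962) and Ly6c2 (1.42, adjusted p = 0.106), and the log2 fold changes of Marco (3.18), Timd4 (1.47) and Chil3 (4.81) were smaller but stayed called. Without liver 3 that of Gpnmb was 3.07, also called. In the fit of the 6 libraries the calls of Marco, Cd5l, Timd4, Adgre1 and Ly6c2 ended (adjusted p = 0.0909, 0.0729, 0.0671, 0.08 and 0.118). Chil3 was too low in count to be tested in that fit.

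Antigen presentation differed in its order of livers. Of 12 dendritic cell and MHC class II genes, 8 rose and 0 fell (median 1.52). The list summed to 421, 431 and 808 CPM in the 1 µg/kg livers and to 427, 135 and 139 CPM in the vehicle livers, so that vehicle liver 1 was as high as livers 1 and 2 at 1 µg/kg. Flt3, the growth factor receptor of dendritic cells, was at 1.37, 1 and 1.58 CPM in the 1 µg/kg livers and 0.298, 0.314 and 0.201 CPM in the vehicle livers (log2 fold change 2.25 ± 0.41, adjusted p = 0.000409). Cd74, the class II invariant chain, was at 192, 167 and 327 CPM in the 1 µg/kg livers and 199, 57.5 and 57.5 CPM in the vehicle livers and was not called (adjusted p = 0.0685).

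Chemokine and cytokine genes were, like the macrophage lists, highest in livers 1 and 3 by their per-liver medians. Their summed levels were 714, 629 and 745 CPM in the 1 µg/kg livers and 704, 686 and 781 CPM in the vehicle livers, which overlap. Most of each sum was Cxcl12, which was not called. It was at 367, 458 and 470 CPM in the 1 µg/kg livers and 525, 556 and 639 CPM in the vehicle livers. The overlap of the sums therefore does not describe the genes that rose. Of 24 chemokine and cytokine genes, 13 rose and 0 fell, with a median of 1.49 and per-liver medians of 1.73, 0.19 and 1.62. In number, 6 rises were counted without liver 1, 17 were counted without liver 2, and 0 in the fit of the 6 libraries. Cxcl1, a neutrophil attractant, was at 55.4, 4.97 and 9.58 CPM in the 1 µg/kg livers and 2.5, 1.83 and 3.65 CPM in the vehicle livers (log2 fold change 3.11 ± 0.84, adjusted p = 0.0136). That call ended without liver 1 (1.43, adjusted p = 0.222), vehicle liver 1 (3.06, adjusted p = 0.0536) or vehicle liver 2 (2.91, adjusted p = 0.0628). Tnf was at 1.9, 0.393 and 2.01 CPM in the 1 µg/kg livers and 0.56, 0.105 and 0.0803 CPM in the vehicle livers (log2 fold change 2.40 ± 0.66, adjusted p = 0.0114), and its call ended without liver 1 (2.14, adjusted p = 0.055), liver 3 (2.05, adjusted p = 0.061), vehicle liver 2 (2.08, adjusted p = 0.0598) or vehicle liver 3 (1.97, adjusted p = 0.0714). The part of the immune cell markers above in these rises was not tested.

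Of 21 matrix remodelling genes, 10 rose and 1 fell (median 1.02), against 11.1% of all genes higher and 8.21% lower. Mmp7, matrilysin, had no vehicle count and stood at 0.833, 0.464 and 2.01 CPM at 1 µg/kg, at least 8.51-fold higher (adjusted p = 0.000882). Mmp9, which neutrophils carry, was at 18.5, 0.536 and 4.57 CPM in the 1 µg/kg livers and 0.522, 0.471 and 0.482 CPM in the vehicle livers (log2 fold change 3.96 ± 0.79, adjusted p = 0.00133). Of 26 collagen and matrix genes, 5 rose and 1 fell (median 0.49), against the same shares. Tnc, tenascin C of remodelling matrix, was at 4.76, 4.57 and 12.5 CPM in the 1 µg/kg livers and 1.38, 0.628 and 1.65 CPM in the vehicle livers (log2 fold change 2.54 ± 0.39, adjusted p = 7.36e-05), highest in liver 3. Col3a1, a main fibrillar collagen, was not called, at 82.2, 46.4 and 73.7 CPM in the 1 µg/kg livers and 46.5, 25.2 and 44.4 CPM in the vehicle livers (adjusted p = 0.128). Of 14 stellate cell and myofibroblast genes, 3 rose and 0 fell (median 0.39).

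Cell cycle genes rose most in liver 1. Of 24 tested, 16 rose and 1 fell, with a median of 2.00 and per-liver medians of 2.66 in liver 1 and 0.59 in liver 2, with liver 3 between them. Mki67, present in all dividing cells, was at 35.6, 4.5 and 6.8 CPM in the 1 µg/kg livers and 1.64, 1.78 and 1.04 CPM in the vehicle livers (log2 fold change 3.39 ± 0.70, adjusted p = 0.00195). Ccnb2, a mitotic cyclin, was at 8.44, 1.71 and 2.45 CPM in the 1 µg/kg livers and 0.634, 0.628 and 0.522 CPM in the vehicle livers (log2 fold change 2.79 ± 0.57, adjusted p = 0.00132). Cdkn1a, the p21 inhibitor of the cycle, was at 6.07, 2.86 and 5.17 CPM in the 1 µg/kg livers and 16.5, 33.8 and 37.6 CPM in the vehicle livers (log2 fold change -2.66 ± 0.70, adjusted p = 0.0114), lower in all treated livers. With liver 1 left out the log2 fold changes were 1.93 for Mki67 and 1.79 for Ccnb2, both called, and in the fit of the 6 libraries the Mki67 call ended (adjusted p = 0.0566). The S-phase gene Pcna was not called (adjusted p = 0.738). Without liver 1 the count was 6 rises and 1 fall, with liver 2 as the only treated library 0 rises, and in the fit of the 6 libraries 7 rises and 1 fall. Which cells divided was not tested.

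Interferon-response genes moved in both directions, with 4 rises and 5 falls among 22 (median 0.09), against 11.1% of all genes higher and 8.21% lower. Among the falls was Rsad2, the antiviral viperin, at 7.85, 5.61 and 6.75 CPM in the 1 µg/kg livers and 21.6, 18.9 and 18.6 CPM in the vehicle livers (log2 fold change -1.55 ± 0.31, adjusted p = 0.00108). ER and integrated stress genes had 3 rises and 2 falls among 19 (median -0.01). Of these, Trib3, a pseudokinase downstream of ATF4, was at 9.16, 13.1 and 18.1 CPM in the 1 µg/kg livers and 4.63, 4.34 and 5.66 CPM in the vehicle livers (log2 fold change 1.46 ± 0.30, adjusted p = 0.00121). Asns, asparagine synthetase, was at 4.04, 0.25 and 0.326 CPM in the 1 µg/kg livers and 0.149, 0.209 and 0.0803 CPM in the vehicle livers, and its rise ended without liver 1 (adjusted p = 0.634). Genes of p53 had 1 rise and 1 fall among 14 (median 0.02), the respiratory chain had 0 and 0 among 21 (median 0.01), and reference genes had 2 and 0 among 8 (median 0.21).

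Of the markers of further cell types, those of platelets and of eosinophils, basophils and mast cells had the highest shares of rises, against 11.1% of all genes higher, on few genes tested. Sinusoidal endothelial genes had 1 rise and 1 fall among 12 (median -0.28), bile duct genes 0 and 2 among 12 (median 0.27), and mesothelial genes 0 and 0 among 7 (median 0.21). Platelet genes had 3 rises and 0 falls among 6 (median 1.01), stem and progenitor genes 3 and 0 among 10 (median 0.31), and erythroid genes 1 and 0 among 11 (median 0.28). The erythroid rise was Car2, a carbonic anhydrase also made outside red cells, at 19.3, 30.8 and 33.8 CPM in the 1 µg/kg livers and 7.87, 8.52 and 8.67 CPM in the vehicle livers (log2 fold change 1.74 ± 0.24, adjusted p = 2.01e-05), alike in the treated livers, whereas Hbb-bs, a globin, was not called (adjusted p = 0.432). Eosinophil, basophil and mast cell genes had 3 rises among 5 tested of 14 (median 3.39, or 1.56 with Prss34 at its bound). One was Siglecf, an eosinophil lectin, at 1.72, 2.47 and 1.96 CPM in the 1 µg/kg livers and 0.149, 0.105 and 0.0401 CPM in the vehicle livers (log2 fold change 4.30 ± 0.71, adjusted p = 0.000149), which was as high in liver 2 as in livers 1 and 3. Ccr3 and Mcpt8 of this list were not called. Ccr3 was at 0.238, 0.107 and 0.0544 CPM in the 1 µg/kg livers and 0.298, 0.157 and 0.0803 CPM in the vehicle livers. Mcpt8 was at 0.654, 0.0357 and 0 CPM in the 1 µg/kg livers and 0.0373, 0 and 0 CPM in the vehicle livers. Pancreatic genes had 1 rise and 1 fall among 4 tested (median -0.33), and 8 of the 12 listed had no count in the 6 livers. Adipocyte genes had 1 rise, Lpl, and 1 fall, Car3, among 4 tested of 9 (median 0.72), with Lep, Plin1 and Retn at 0 in the 6 livers.

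**Figure D5:**
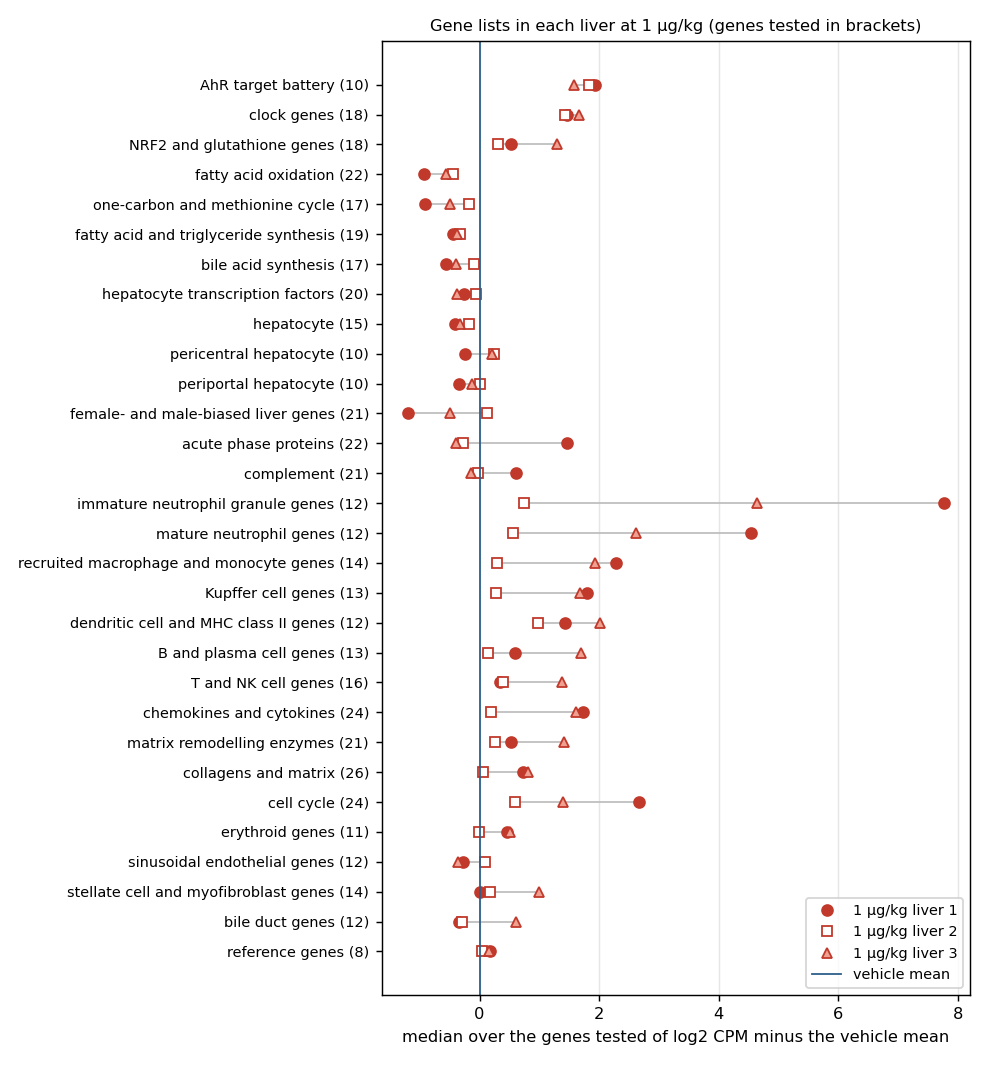
Median over the tested genes of each list of log2 CPM minus the vehicle mean (x axis) for each of the livers at 1 µg/kg, 1 row per list. Liver 2 is the liver nearest to 0, but above it, for the neutrophil, Kupffer cell, chemokine and cell cycle lists. Its medians are 0.75 (immature neutrophil), 0.55 (mature neutrophil), 0.28 (Kupffer cell), 0.19 (chemokine) and 0.59 (cell cycle). The AhR battery (1.93, 1.84 and 1.58) and clock lists (1.47, 1.43 and 1.67) have the 3 livers together.

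At the next higher dose, 3 µg/kg, few genes differed from 1 µg/kg. The test called 94 genes (0.622% of those tested), 47 higher (0.311%) and 47 lower (0.311%) at 1 µg/kg. The count was 28 without liver 1 at 1 µg/kg, 949 without liver 2 and 89 without liver 3, and 41, 24 and 17 without liver 1, 2 or 3 at 3 µg/kg. On the 2 principal components the 3 µg/kg livers lay close together, at 9.90, 16.74 and 13.08 on the first and 19.97, 18.91 and 21.97 on the second, next to livers 1 and 3 at 1 µg/kg on the first and to liver 2 on the second. Ahrr was lower at 1 µg/kg, at 23.6, 21.3 and 13.6 CPM against 35.6, 44.1 and 45.4 CPM at 3 µg/kg (log2 fold change -1.10 ± 0.20, adjusted p = 0.00781). Ovol1 was at 0.892, 1.75 and 2.39 CPM in the 1 µg/kg livers against 5.95, 6.26 and 7.44 CPM in the 3 µg/kg livers (log2 fold change -1.96 ± 0.32, adjusted p = 0.00781). Cyp1a1 was not called (adjusted p = 0.351). Col9a2, a chain of cartilage collagen IX, was at 0.476, 0.965 and 0.871 CPM in the 1 µg/kg livers, 13.5, 14.5 and 13.8 CPM in the 3 µg/kg livers and 0, 0.0523 and 0.0803 CPM in the vehicle livers (log2 fold change -4.12 ± 0.34, adjusted p = 9.79e-08 for 1 against 3 µg/kg). Its pooled ratio of 1 µg/kg to vehicle was 19.1-fold (95% interval 6.17 to 95.5). All 3 livers at 1 µg/kg lay between the other groups for this gene. Also lower at 1 µg/kg were Pnliprp1, a pancreatic lipase relative, Ap1m2 and Cnksr1, of epithelial cells, and Slc44a4, a membrane transporter (adjusted p = 0.0104, 0.000456, 0.00029 and 0.00511).

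Among genes higher at 1 than at 3 µg/kg, Hao1, the glycolate oxidase of hepatocytes, was at 96.4, 62.1 and 52.8 CPM in the 1 µg/kg livers and 22.5, 10.5 and 13.4 CPM in the 3 µg/kg livers (log2 fold change 2.19 ± 0.28, adjusted p = 9.55e-05), and at 112, 193 and 175 CPM in vehicle. Adrb3, a β-adrenergic receptor, was at 3.69, 1.29 and 1.63 CPM in the 1 µg/kg livers and 0.326, 0.353 and 0.462 CPM in the 3 µg/kg livers (log2 fold change 2.43 ± 0.49, adjusted p = 0.0169), with vehicle at 6.98, 8.05 and 5.9 CPM. For both, 1 µg/kg lay between vehicle and 3 µg/kg in every liver. Anxa1, an anti-inflammatory annexin, was at 48.6, 5.29 and 16 CPM in the 1 µg/kg livers and 3.1, 4.76 and 3.74 CPM in the 3 µg/kg livers (log2 fold change 2.59 ± 0.51, adjusted p = 0.0195), where liver 1 was far above liver 2. Gria3 and Kcnj2, a glutamate receptor subunit and a potassium channel, were the other largest rises (adjusted p = 0.0377 and 0.0102), and liver 2 had the lowest level of each among the 1 µg/kg livers. Among the neutrophil lists, 1.14, 0.882 and 0.539 CPM of Ngp and 3.42, 4.14 and 0.693 CPM of S100a8 were measured in the livers at 3 µg/kg, below livers 1 and 3 at 1 µg/kg.

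At the next lower dose, 0.3 µg/kg, many more genes differed. The test called 1081 genes (7.15%), 771 higher (5.1%) and 310 lower (2.05%) at 1 µg/kg, and it called 289 without liver 1, 1716 without liver 2 and 698 without liver 3. Without liver 1, 2 or 3 at 0.3 µg/kg it called 120, 811 and 818, liver 2 being the library of 434011 counts. Of the AhR battery, 4 genes were higher at 1 µg/kg, namely Cyp1b1, Ahrr, Tiparp and Nqo1 (adjusted p = 6.01e-11, 1.32e-06, 0.00736 and 0.0264). Cyp1b1 was at 162, 135 and 122 CPM in the 1 µg/kg livers and 1.7, 5.75 and 2.7 CPM in the 0.3 µg/kg livers, a step without overlap. Cyp1a1 was at 3173, 4864 and 4017 CPM in the 1 µg/kg livers and 2122, 3543 and 3528 CPM in the 0.3 µg/kg livers and was not called (adjusted p = 0.313). No clock gene was called between these doses, which does not show that their levels were alike, as the 0.3 µg/kg livers spread widely. Arntl was at 1.96, 0.929 and 0.653 CPM in the 1 µg/kg livers and 6.21, 11.5 and 1.12 CPM in the 0.3 µg/kg livers. Dbp was at 111, 169 and 214 CPM in the 1 µg/kg livers and 86.6, 103 and 192 CPM in the 0.3 µg/kg livers.

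The largest rises over 0.3 µg/kg were neutrophil genes, Camp, Cd177, Ltf, S100a8 and Ngp (adjusted p = 0.0236, 0.0357, 0.0177, 0.00551 and 0.0111). S100a8 was at 224, 1.43 and 52.1 CPM in the 1 µg/kg livers and 0.295, 0 and 0.0659 CPM in the 0.3 µg/kg livers, and liver 2 was the 1 µg/kg liver nearest to them. Among the largest falls, Csad was at 21.6, 18.7 and 40 CPM in the 1 µg/kg livers and 260.0, 229.9 and 109.8 CPM in the 0.3 µg/kg livers (log2 fold change -2.88 ± 0.38, adjusted p = 0.000192). Cyp4a14 was at 3.45, 163 and 189.8 CPM in the 1 µg/kg livers and 2241, 1439 and 444 CPM in the 0.3 µg/kg livers (log2 fold change -3.53 ± 0.94, adjusted p = 0.0281). Mup3, a major urinary protein with near-identical copies, was at 453, 665 and 255 CPM in the 1 µg/kg livers and 1903, 3106 and 1572 CPM in the 0.3 µg/kg livers (log2 fold change -2.26 ± 0.53, adjusted p = 0.0127). Rian, a long noncoding RNA of an imprinted cluster, and Hsp25-ps1, a pseudogene, were the others (adjusted p = 0.00397 and 0.0313). For Csad, Cyp4a14 and Mup3 all 3 livers at 1 µg/kg lay below all 3 at 0.3 µg/kg, which was a condition for choosing these falls. Of the fatty acid oxidation list, 13 of 22 genes were lower and 0 higher at 1 than at 0.3 µg/kg. Of the Kupffer cell and of the chemokine and cytokine genes, 11 of 13 and 11 of 24 were higher and 0 lower.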

How the data were processed

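Per the labels' protocols, total liver RNA was extracted with TRIzol and made into Illumina TruSeq libraries. The deposited values are raw gene counts per library; the submitters' processing notes name FastQC 0.11.2, cutadapt 1.4.1, TopHat 1.4.1, SAMtools 0.1.19, HTSeq 0.6.1, DESeq and the build GRCm38. Neither the annotation release nor the strand setting is given in the sources used here, so reads of overlapping genes cannot be told apart. Of 41388 gene IDs, 40340 matched a GENCODE vM21 symbol. The 5 summary lines were left out of library totals and tests: reads without a gene made up 5.62 to 11.9% and ambiguous reads 1.79 to 3.49% per library.

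Counts of all 27 libraries were fitted with edgeR 4.0.16 (R 4.3.3, limma 3.58.1; TMM scaling, filterByExpr with a minimum of 10, robust quasi-likelihood), and p-values were adjusted by Benjamini-Hochberg over 15121 genes, with calls below 0.05. DESeq2 1.42.0, other scalings, filters, thresholds, library sets and a replicate block were alternatives. The code was tested on simulated data. Between pairs of 1 µg/kg livers and pairs of vehicle livers, chi-square over its degrees of freedom was 37.5 or more. No such pair thus agreed within sampling noise, and other groups were not compared this way. CPM are not per length, so levels are not compared between genes. Log2 CPM has a prior count of 2.

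The comparison, gene lists and named genes were chosen with earlier results of these data known. Named were the AhR battery; the 10 largest rises and falls; the 10 closest rises and falls and the 10 least alike genes among the 1 µg/kg livers; up to 4 called and 2 uncalled genes per list; and the 5 largest differences each way from 3 and 0.3 µg/kg. Some of these are not reported here. Per3, Nfil3, Hp, Ppara, Fn1, Cd79a and Ms4a1 were named after their values were seen.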

Additional observations from a re-analysis of the deposited data

How the results depend on the processing

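Counts of called genes are given in the order 1 µg/kg against vehicle, against 3 µg/kg and against 0.3 µg/kg, where the values reported were 2927, 94 and 1081. At an adjusted p below 0.01 they were 1529, 22 and 325. With an absolute log2 fold change of at least 1 added, they were 1593, 73 and 765. With only the 6 libraries compared in the fit, they were 1591, 7 and 15, the spread then resting on 6 libraries. DESeq2 gave 2795, 343 and 1188. With liver 1 as the only 1 µg/kg library they were 2372, 1193 and 1666, with liver 2 they were 497, 16 and 17, and with liver 3 they were 1541, 65 and 727; a lone library is assumed there to vary like the other groups. Leaving out 1 library at a time gave 1731 to 2990, 17 to 949 and 120 to 1716. RLE or upper-quartile scaling, other low-count filters, non-robust dispersion and leaving out libraries under 1000000 counts kept each count within 1.5 times.

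Of the 132 genes named in the text and called against vehicle, 129 were called by DESeq2, which gave the others no adjusted p, and 131 under RLE scaling. Without liver 1 the calls of 26 ended and 1 turned. Values of opposite sign came from liver 2 as the only treated library for Ighg2b (-0.91), Ighg2c (-4.98), Kcnj2 (-0.14), Ly6c2 (-0.31), Orm2 (-0.69) and Prtn3 (-0.58), all in log2 units. Leaving out 1 library at a time gave -0.0602 (without liver 1) to 5.69 for Orm2 and 2.44 (without vehicle liver 3) to -8.25 for Acta1; the causes were not tested. With the replicate number as a block (paired fit), 2909, 65 and 1175 genes were called and the call of Asns ended. Deviations of same-numbered 1 µg/kg and vehicle livers correlated at 0.084, 0.155 and 0.012, so the numbers were not taken to pair the livers. Liver 2 at 0.3 µg/kg, with 434011 counts, limits what can be detected against that dose.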
